A study of Arabidopsis thaliana with 9 samples.

Results

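The gibberellin (GA) biosynthesis enzymes are described here as 10 genes of Arabidopsis thaliana, taken by their locus identifiers from the 32830 genes of the count matrix. They were CPS (AT4G02780), KS (AT1G79460), KO (AT5G25900), KAO1 (AT1G05160), KAO2 (AT2G32440), GA20ox1 (AT4G25420), GA20ox2 (AT5G51810), GA20ox3 (AT5G07200), GA3ox1 (AT1G15550) and GA3ox2 (AT1G80340). All 10 genes had counts, and matrix entries of the same gene were summed. RNA was sequenced from whole seeds of 3 groups, with 3 biological replicates each. The first was AtKAI2OE with 0.5 μM karrikin 2 (KAR2), a butenolide of plant smoke that signals through the receptor KAI2. The second was AtKAI2OE at 0 μM KAR2, called untreated below, and the third was wild-type Ara-1, a natural accession, also at 0 μM KAR2. The labels place AtKAI2OE in Col-0, whereas the study's methods describe the overexpression line as AtKAI2 driven by the constitutive 35S promoter in the htl-3 (kai2) mutant. All seeds were plated in weak light, for which the labels give a value of 0.3 µM m-2 s-1. They were then imbibed for 4 days in the cold (4 °C) without light, after which they spent 24 h at room temperature, still in the dark. Plating light, darkness and cold imbibition were thus shared by every group. No Ara-1 seeds with KAR2 and no untransformed Col-0 seeds were analysed here. Differences from Ara-1 therefore combine accession, transgene and, where the methods hold for these seeds, the htl-3 mutation. With KAR2 they also include the treatment, and these parts cannot be told apart.

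GAs are diterpenoid hormones that promote germination, and their synthesis rises in Arabidopsis seeds after light perceived by phytochrome. The pathway starts in plastids, where CPS and KS, a pair of terpene cyclases, turn geranylgeranyl diphosphate (GGPP) into ent-kaurene. The cytochrome P450 enzymes KO and KAO oxidise ent-kaurene to GA12, and the soluble 2-oxoglutarate-dependent dioxygenases GA20ox and GA3ox then make the bioactive hormone, with GA3ox as the last, activating step.

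The steps of the pathway did not move together. In AtKAI2OE +KAR2 seeds the last step was higher than in untreated AtKAI2OE seeds, with GA3ox1 36.0-fold and GA3ox2 at least 66.4-fold higher, and GA20ox1 was 4.39-fold higher. CPS, KS, KO and GA20ox3 were lower by 1.37- to 2.73-fold in the same comparison. Of these, CPS no longer passed the test in 7 and KO in 5 of 15 alternative analyses. Untreated AtKAI2OE seeds had more CPS, KS, KO, GA20ox2 and GA20ox3 transcript than Ara-1 seeds, by 3.65- to 39.7-fold, and almost no GA3ox transcript, whereas Ara-1 seeds had the highest GA3ox1 and GA3ox2 levels of the 3 groups. KAO1 and KAO2 did not pass the test in any of the 3 comparisons.

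Counts assigned to genes were between 17479888 and 33306518 per library, and entries naming no gene took another 13.4% to 35.1% of all counts. The 35.1% was Ara-1 replicate 1, beside 13.4% and 13.6% in the other Ara-1 replicates. This share was 17.6% to 24.6% in AtKAI2OE +KAR2 and 25.0% to 28.9% in untreated AtKAI2OE. The 10 most abundant genes held 8.41% to 9.92% of gene counts in AtKAI2OE +KAR2, 18.3% to 23.7% in untreated AtKAI2OE and 7.67% to 14.1% in Ara-1, where the 14.1% was again replicate 1. Levels are given as CPM, the count of a gene scaled to a fixed total of gene counts per library, after TMM scaling over the 9 libraries, and levels of different genes are compared only as CPM per kb of exon. Fold changes are log2 values with their standard error from edgeR's quasi-likelihood test on 6 libraries, with p-values adjusted (Benjamini-Hochberg) over all genes tested and a threshold of 0.05. The 3 comparisons share libraries, so that their values stand side by side and are not independent of one another. As these are whole seeds, fewer cells expressing a gene and less transcript per cell cannot be told apart.

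A set of 6 marker genes of mature seeds, which encode storage proteins, an oleosin and late embryogenesis proteins, also differed between the groups. Their sum ran in the order of CPS, KS, KO and GA20ox3 and opposite to GA3ox1 and GA3ox2. Their summed level was 15141 to 16467 CPM in AtKAI2OE +KAR2, 133640 to 165105 CPM in untreated AtKAI2OE and 372 to 598 CPM in Ara-1. All 6 were called lower after KAR2, beside 24.0% of all genes tested. All 6 were also called higher than in Ara-1 in untreated AtKAI2OE (31.8% of all genes) and in AtKAI2OE +KAR2 (32.2%). An assembled entry of CRA1, a storage protein gene among them, held 371085, 1756538 and 849022 counts in untreated AtKAI2OE and 0 in the libraries of the other groups. The sum of 3 markers of the endosperm of germinating seeds was 766 to 941, 1324 to 3504 and 144 to 223 CPM in the same order of groups, and nearly all of it came from EPR1. The others, MAN5 and MAN7, did not pass the test in any of the 3 comparisons. Their log2 fold changes in untreated AtKAI2OE against Ara-1 were -0.002 and -0.87, beside 3.81 for EPR1. The sum of 4 genes of green tissue was 1175 to 1266, 121 to 208 and 1275 to 1487 CPM, almost wholly from RBCS1A, while LHCB2.1 was at 0 in all 9 libraries. Pollen markers reached at most 0.28 CPM. The part of seed stage or tissue makeup in the values below was not tested.

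After KAR2, which below means AtKAI2OE +KAR2 against untreated AtKAI2OE, 3 of the 10 genes were called higher, 4 lower and 3 did not pass. Over all 17226 genes tested in that comparison, 29.8% were called higher and 24.0% lower, and 65.6% had no overlap between the libraries of both groups, against 7 of the 10 genes. In untreated AtKAI2OE against Ara-1, 5 genes were called higher, 2 lower and 3 did not pass, beside 31.8% higher and 37.9% lower among all 17905 genes tested. There 9 of the 10 genes had no overlap, beside 75.5% of all genes, judged like the other counts of this kind in CPM scaled over the 6 libraries compared. One of these 9, KAO2, overlapped in the CPM scaled over 9 libraries that are printed here (lowest untreated library 27.1 CPM, highest Ara-1 library 27.3 CPM). In AtKAI2OE +KAR2 against Ara-1, 6 were called higher, 2 lower and 2 did not pass, beside 32.2% higher and 30.1% lower among 17978 genes, and 8 genes had no overlap, beside 69.7%. The median log2 fold change of the 10 genes was -0.11, against 0.06 over all genes, after KAR2. It was 1.63, against -0.16, in untreated AtKAI2OE relative to Ara-1 and 1.46, against 0.01, in AtKAI2OE +KAR2 relative to Ara-1. All 10 genes passed the filter on low counts in each comparison, but GA3ox1 and GA3ox2 in the comparisons with untreated AtKAI2OE, and CPS in those with Ara-1, passed it through the counts of 1 group, so that these shares are descriptions and mark nothing particular to the pathway. With scaling by library size only, which moved the median of all genes after KAR2 to 0.46, CPS (adjusted p = 0.0984) and KO (adjusted p = 0.737) no longer passed after KAR2 and GA20ox2 did (log2 fold change 0.57, adjusted p = 0.00867).

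**Figure D1:**
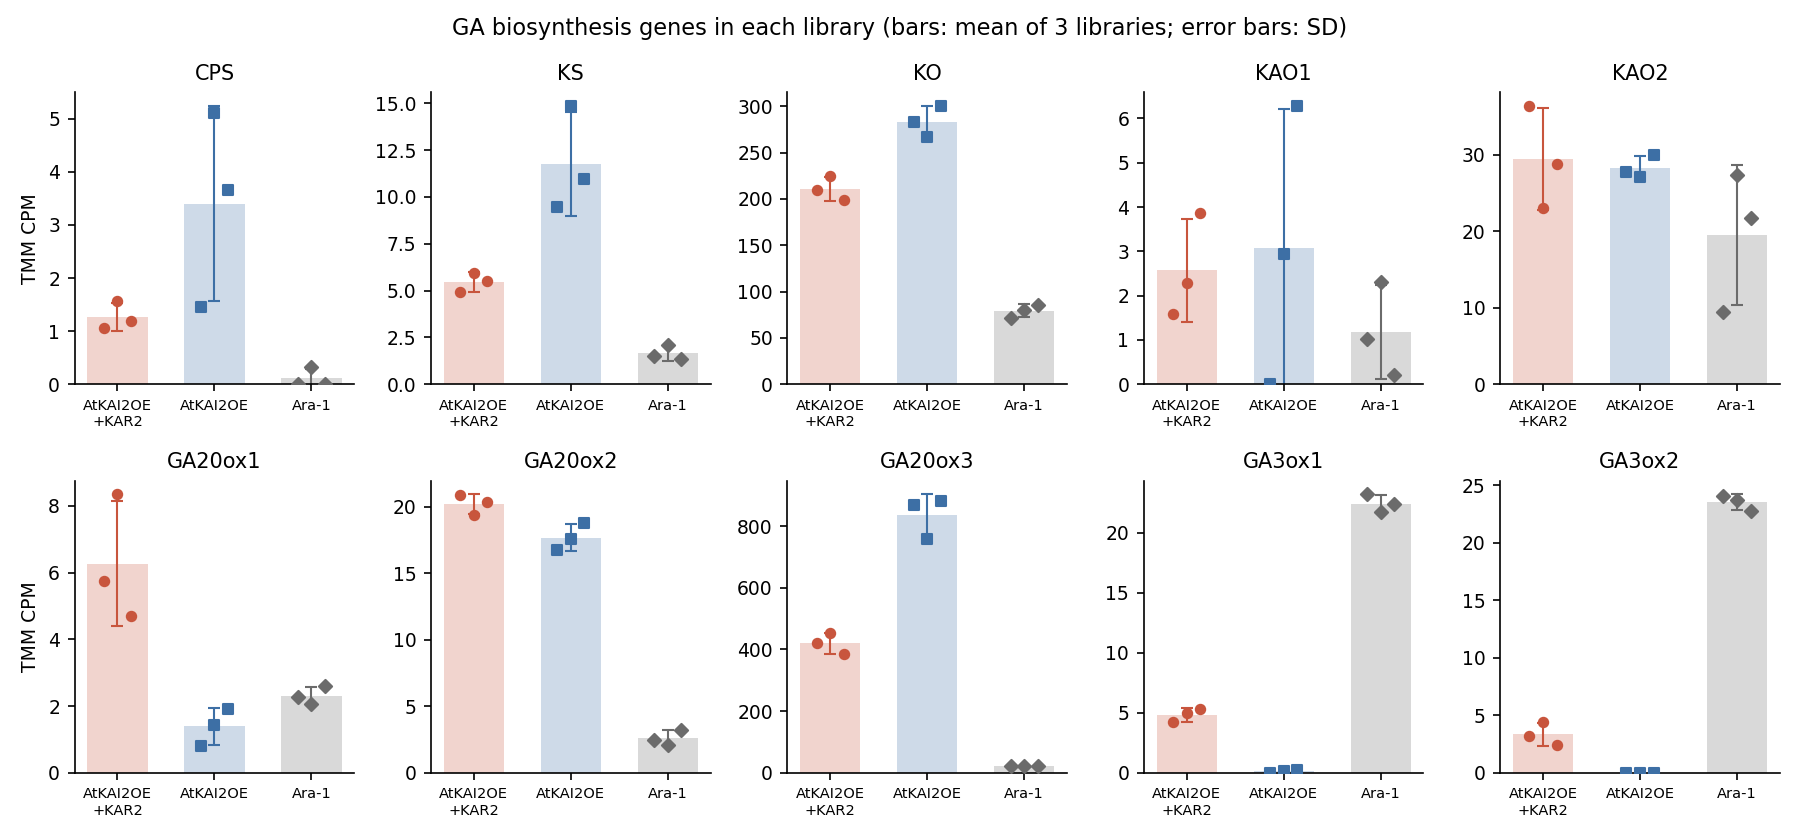
TMM CPM (y axis, linear and from 0) of each GA biosynthesis gene in AtKAI2OE +KAR2, untreated AtKAI2OE and Ara-1 (x axis). Points are libraries, bars the mean of 3 libraries and error bars the SD. GA3ox1 and GA3ox2 were near or at 0 in untreated AtKAI2OE and at 21.7 to 24.1 CPM in Ara-1, whereas GA20ox3 was at 760 to 880 CPM in untreated AtKAI2OE and 20.4 to 22.9 CPM in Ara-1.

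CPS (chromosome 4, 1237671 to 1244822, minus strand of TAIR10.1, a protein-coding gene like all 10) makes ent-copalyl diphosphate from GGPP and is the committing enzyme of the pathway. It was the least abundant step per length in AtKAI2OE +KAR2 and in Ara-1. CPS had 1.07, 1.56 and 1.184 CPM in AtKAI2OE +KAR2, against 1.46, 5.10 and 3.66 CPM in untreated AtKAI2OE. One untreated library thus lay within the range of the treated ones. The log2 fold change was -1.45 (SE 0.45, adjusted p = 0.0308), and it no longer passed when any of the 3 AtKAI2OE +KAR2 libraries (adjusted p from 0.0643 to 0.109), untreated replicate 2 (0.0788) or untreated replicate 3 (0.0741) was left out. Ara-1 had 0, 0.33 and 0 CPM, so that all 12 CPS counts of the group were in replicate 2. CPS was higher than in Ara-1 in untreated AtKAI2OE (log2 fold change 4.75, SE 1.08, adjusted p = 0.00565) and in AtKAI2OE +KAR2 (3.31, SE 0.88, adjusted p = 0.0126). Without Ara-1 replicate 2 the group had no CPS count, and the fitted values, which then depend on the prior count, were 9.29 and 8.13.

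KS (chromosome 1, 29890367 to 29894646, plus strand) converts the product of CPS to ent-kaurene. KS had 4.91, 5.94 and 5.51 CPM in AtKAI2OE +KAR2, 9.46, 14.9 and 10.97 CPM in untreated AtKAI2OE and 1.52, 2.12 and 1.33 CPM in Ara-1. The 3 groups did not overlap, with untreated AtKAI2OE highest and Ara-1 lowest, as for CPS. KS fell by 1.14 on the log2 scale after KAR2 (SE 0.20, adjusted p = 0.00294). It was 7.21-fold higher in untreated AtKAI2OE (log2 fold change 2.85, SE 0.28, adjusted p = 9.06e-05) and 3.35-fold higher in AtKAI2OE +KAR2 (1.74, SE 0.21, adjusted p = 0.000232) than in Ara-1. The last 78 bases of KS overlap AT1G79470 on the opposite strand, and since no source used here gives the strand setting of the counting, reads there cannot be told apart.

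KO (chromosome 5, 9035817 to 9038423, plus strand), the P450 enzyme ent-kaurene oxidase, was far more abundant per length than CPS and KS. KO had 209, 225 and 199 CPM in AtKAI2OE +KAR2, 283, 266 and 300 CPM in untreated AtKAI2OE and 71.5, 80.5 and 85.4 CPM in Ara-1. It kept the order of CPS and KS, with no overlap between groups. KO fell by 0.45 on the log2 scale after KAR2 (SE 0.12, adjusted p = 0.0156), a difference that no longer passed without any one of the AtKAI2OE +KAR2 libraries (adjusted p from 0.0507 to 0.0927). KO was higher than in Ara-1 in untreated AtKAI2OE (log2 fold change 1.87, SE 0.15, adjusted p = 3.85e-05) and in AtKAI2OE +KAR2 (1.45, SE 0.09, adjusted p = 8.12e-06). KO has a second matrix entry from an assembled transcript, with 371, 101 and 141 counts in AtKAI2OE +KAR2, 0, 241 and 104 in untreated AtKAI2OE and 608, 1222 and 1684 in Ara-1. With only the entry named by the identifier, the differences from Ara-1 were larger, at 2.83 in untreated AtKAI2OE and 2.35 in AtKAI2OE +KAR2.

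KAO1 (chromosome 1, 1487378 to 1491005, minus strand) and KAO2 (chromosome 2, 13774588 to 13778026, plus strand) are P450 enzymes that carry ent-kaurenoic acid on to GA12. KAO2 held most of the step, at 92.3% ± 3.59 of its CPM per kb in AtKAI2OE +KAR2, 91.6% ± 8.09 in untreated AtKAI2OE and 94.3% ± 4.28 in Ara-1 (SD, n = 3 each). KAO2 had 36.4, 23.1 and 28.8 CPM in AtKAI2OE +KAR2, 27.7, 27.1 and 30.0 CPM in untreated AtKAI2OE and 9.49, 27.3 and 21.7 CPM in Ara-1. The treated libraries enclosed the untreated ones, and the difference after KAR2 was 0.03 (SE 0.17, adjusted p = 0.884). Against Ara-1 it was 0.55 in untreated AtKAI2OE (SE 0.35, adjusted p = 0.192) and 0.62 in AtKAI2OE +KAR2 (SE 0.34, adjusted p = 0.151), where the low Ara-1 replicate 1 sets most of the spread.

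KAO1 had 1.58, 2.28 and 3.86 CPM in AtKAI2OE +KAR2, 0, 2.93 and 6.28 CPM in untreated AtKAI2OE and 1.02, 2.31 and 0.20 CPM in Ara-1. Its libraries varied more within groups than between them, with a count of 0 beside 134 counts in the untreated group. The log2 fold changes were -0.26 after KAR2 (SE 1.03, adjusted p = 0.851), 1.39 in untreated AtKAI2OE against Ara-1 (SE 1.26, adjusted p = 0.353) and 1.15 in AtKAI2OE +KAR2 against Ara-1 (SE 0.71, adjusted p = 0.193). The last of these passed when Ara-1 replicate 2 was left out (2.24, adjusted p = 0.0365). The first 32 bases of KAO1 lie within AT1G05170 on the same strand.

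GA20ox enzymes remove carbon-20 in successive oxidations and give the precursors of bioactive GAs. GA20ox3 (chromosome 5, 2243553 to 2245339, minus strand) was the most abundant of the 10 genes per length in both AtKAI2OE groups. GA20ox3 had 420, 454 and 385 CPM in AtKAI2OE +KAR2, 869, 760 and 880 CPM in untreated AtKAI2OE and 22.9, 21.2 and 20.4 CPM in Ara-1. The groups lay far apart relative to their spread. GA20ox3 fell by 1.02 on the log2 scale after KAR2 (SE 0.14, adjusted p = 0.00101). It was 39.7-fold higher in untreated AtKAI2OE (log2 fold change 5.31, SE 0.19, adjusted p = 2.91e-06) and 20.05-fold higher in AtKAI2OE +KAR2 (4.33, SE 0.10, adjusted p = 1.48e-07) than in Ara-1.

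GA20ox2 (chromosome 5, 21055179 to 21056881, minus strand) had 20.9, 19.4 and 20.3 CPM in AtKAI2OE +KAR2, 16.7, 17.5 and 18.8 CPM in untreated AtKAI2OE and 2.48, 2.06 and 3.23 CPM in Ara-1. The treated libraries lay just above the untreated ones, but the difference of 0.17 did not pass (SE 0.11, adjusted p = 0.224). GA20ox2 was 6.92-fold higher in untreated AtKAI2OE (log2 fold change 2.79, SE 0.22, adjusted p = 3.30e-05) and 7.97-fold higher in AtKAI2OE +KAR2 (2.99, SE 0.17, adjusted p = 4.94e-06) than in Ara-1.

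GA20ox1 (chromosome 4, 12990851 to 12992585, minus strand), the family member best known from stem elongation, went the other way from GA20ox3 after KAR2. GA20ox1 had 5.75, 8.34 and 4.70 CPM in AtKAI2OE +KAR2, 0.79, 1.45 and 1.92 CPM in untreated AtKAI2OE and 2.26, 2.06 and 2.60 CPM in Ara-1. Every treated library was above all libraries of the other groups, and untreated AtKAI2OE was the lowest group. GA20ox1 rose by 2.14 on the log2 scale after KAR2 (SE 0.35, adjusted p = 0.00208). It was 2.77-fold higher in AtKAI2OE +KAR2 than in Ara-1 (log2 fold change 1.47, SE 0.24, adjusted p = 0.00104). The difference between untreated AtKAI2OE and Ara-1, -0.71, did not pass (SE 0.36, adjusted p = 0.118).

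Within the GA20ox step, GA20ox3 made up 93.9% ± 0.18 of the CPM per kb in AtKAI2OE +KAR2, 97.7% ± 0.24 in untreated AtKAI2OE and 80.9% ± 3.26 in Ara-1 (SD, n = 3 each). GA20ox1 made up 1.44% ± 0.32, 0.17% ± 0.07 and 9.04% ± 1.04 in the same order of groups. The sum over the step therefore followed GA20ox3. GA20ox4, GA20ox5, GA3ox3 and GA3ox4, the remaining genes of the same families, had no count in any library.

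The upstream sequences of GA20ox2 and GA20ox3 are printed because these paralogs were both far higher in AtKAI2OE than in Ara-1, while after KAR2 GA20ox3 fell and GA20ox2 did not pass. Each run is the 250 bases before the annotated start in the TAIR10.1 genome of RefSeq, 5′ to 3′ on the gene's own strand (chr5:21056882-21057131 and chr5:2245340-2245589, both minus), with capitals marking a match to one of 5 motifs searched on both strands. The motifs were the G-box CACGTG and the PBE-box CACATG, which PIF transcription factors bind, the RY core CATGCA of seed B3 factors, TAACAAA, known from GA-responsive promoters of cereals, and ATAACAA, which shares 6 letters with it and is reported to be bound by the SMAX1 relative SMXL6.
GA20ox2: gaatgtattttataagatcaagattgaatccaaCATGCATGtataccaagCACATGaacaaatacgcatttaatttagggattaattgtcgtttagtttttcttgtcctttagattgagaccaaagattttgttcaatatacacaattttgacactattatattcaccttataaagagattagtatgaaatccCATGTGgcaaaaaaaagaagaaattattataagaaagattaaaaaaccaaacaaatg
GA20ox3: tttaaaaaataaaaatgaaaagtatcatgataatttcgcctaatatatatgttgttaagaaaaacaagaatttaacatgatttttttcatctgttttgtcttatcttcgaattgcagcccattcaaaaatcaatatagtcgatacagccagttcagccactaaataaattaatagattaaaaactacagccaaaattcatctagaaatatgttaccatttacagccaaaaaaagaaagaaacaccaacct
GA20ox2 held a pair of overlapping RY cores, starting 217 and 215 bases before the start, and a pair of PBE-boxes at 200 and 57 bases, whereas GA20ox3 held none of the 5 motifs. A match is a description of these letters and not a site shown to be bound.

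GA3ox enzymes carry out the final 3-beta-hydroxylation that makes GAs active. GA3ox1 (chromosome 1, 5344388 to 5346342, minus strand) had 4.20, 4.97 and 5.28 CPM in AtKAI2OE +KAR2, 0, 0.12 and 0.23 CPM in untreated AtKAI2OE and 23.2, 21.7 and 22.4 CPM in Ara-1. The untreated values rest on 0, 3 and 5 counts. All treated libraries were above all untreated ones and below all Ara-1 libraries. GA3ox1 rose by 5.17 on the log2 scale after KAR2 (SE 0.57, adjusted p = 0.000348), a value that was 4.72 without untreated replicate 1 and 5.90 without untreated replicate 3. It was lower than in Ara-1 by 165-fold in untreated AtKAI2OE (log2 fold change -7.37, SE 0.44, adjusted p = 9.80e-06) and by 4.54-fold in AtKAI2OE +KAR2 (-2.18, SE 0.11, adjusted p = 3.78e-06). The first of these was -6.91 without untreated replicate 1 and -8.10 without untreated replicate 3.

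GA3ox2 (chromosome 1, 30200466 to 30202349, minus strand) had 3.23, 4.42 and 2.44 CPM in AtKAI2OE +KAR2, 0 CPM in all 3 untreated AtKAI2OE libraries and 24.1, 23.7 and 22.8 CPM in Ara-1. The order of the groups was that of GA3ox1, again with no overlap. GA3ox2 passed the test after KAR2 (adjusted p = 0.000469) and, against a floor of 3 counts over the untreated group, was at least 66.4-fold higher, a bound that covers counting error only. It was at least 472-fold lower in untreated AtKAI2OE than in Ara-1 (adjusted p = 8.08e-06) and 6.85-fold lower in AtKAI2OE +KAR2 than in Ara-1 (log2 fold change -2.78, SE 0.20, adjusted p = 1.50e-05).

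The share of the GA3ox step taken by GA3ox2 was 41.7% ± 8.19 in AtKAI2OE +KAR2 and 52.2% ± 0.89 in Ara-1 (SD, n = 3 each). The treated libraries ranged from 32.5% to 48.1% and those of Ara-1 from 51.5% to 53.2%, so that the ranges did not overlap. In untreated AtKAI2OE the few counts all belonged to GA3ox1.

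The upstream sequence of GA3ox1 is printed because the groups of this gene lay far apart. It is cut as above, at chr1:5346343-5346592 on the minus strand.
GA3ox1: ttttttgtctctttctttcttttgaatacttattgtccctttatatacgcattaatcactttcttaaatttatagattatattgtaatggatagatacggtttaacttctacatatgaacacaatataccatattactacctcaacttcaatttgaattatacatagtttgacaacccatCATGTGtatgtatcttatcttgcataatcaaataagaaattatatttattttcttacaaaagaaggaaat
GA3ox1 held 1 PBE-box, starting 70 bases before the start and reading CATGTG on the gene's strand. Among the 9 genes searched, the window from 250 bases before to 50 after the start held a PBE-box in 3 (KS, GA20ox2 and GA3ox1) and an RY core in 2 (CPS and GA20ox2), while no window held the other 3 motifs. Of 27443 protein-coding genes, 12.9% had a PBE-box in such a window, 9.72% an RY core, 7.68% a G-box, 13.5% ATAACAA and 18.4% TAACAAA.

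**Figure D2:**
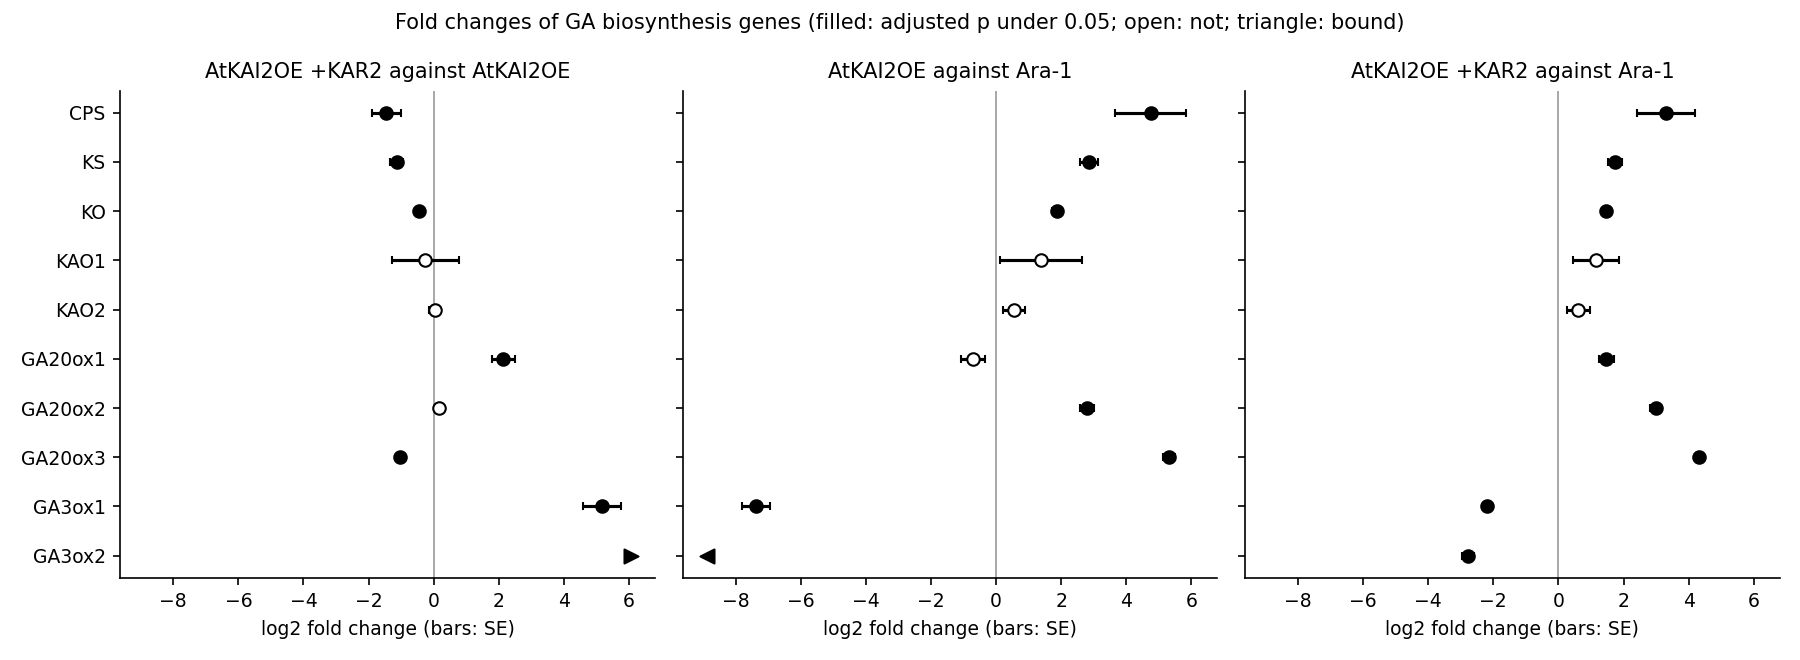
Log2 fold change (x axis) of each gene (y axis) in AtKAI2OE +KAR2 against AtKAI2OE, AtKAI2OE against Ara-1 and AtKAI2OE +KAR2 against Ara-1. Points are fitted values with SE bars over 3 libraries per group, filled where the adjusted p was below 0.05, and triangles are bounds where a group had no count. GA3ox1 and GA3ox2 lie on the opposite side from CPS, KS, KO and GA20ox3 in each panel.

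Per length, the steps differed by orders of magnitude. In AtKAI2OE +KAR2 the summed level was 0.47 ± 0.10 CPM per kb for CPS, 2.05 ± 0.20 for KS, 109 ± 6.67 for KO, 16.2 ± 3.24 for KAO, 278 ± 22.3 for GA20ox and 5.47 ± 0.72 for GA3ox (SD, n = 3). In untreated AtKAI2OE it was 1.27 ± 0.69 for CPS, 4.42 ± 1.05 for KS, 147 ± 8.81 for KO, 15.8 ± 2.13 for KAO, 533 ± 41.6 for GA20ox and 0.08 ± 0.08 for GA3ox. In Ara-1 it was 0.04 ± 0.07 for CPS, 0.62 ± 0.15 for KS, 41.0 ± 3.64 for KO, 10.5 ± 4.88 for KAO, 16.6 ± 0.73 for GA20ox and 30.9 ± 0.79 for GA3ox. GA20ox was the highest step in both AtKAI2OE groups, and in Ara-1 KO was. GA3ox was the lowest step only in untreated AtKAI2OE and exceeded GA20ox only in Ara-1. These sums are descriptions with no test.

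**Figure D3:**
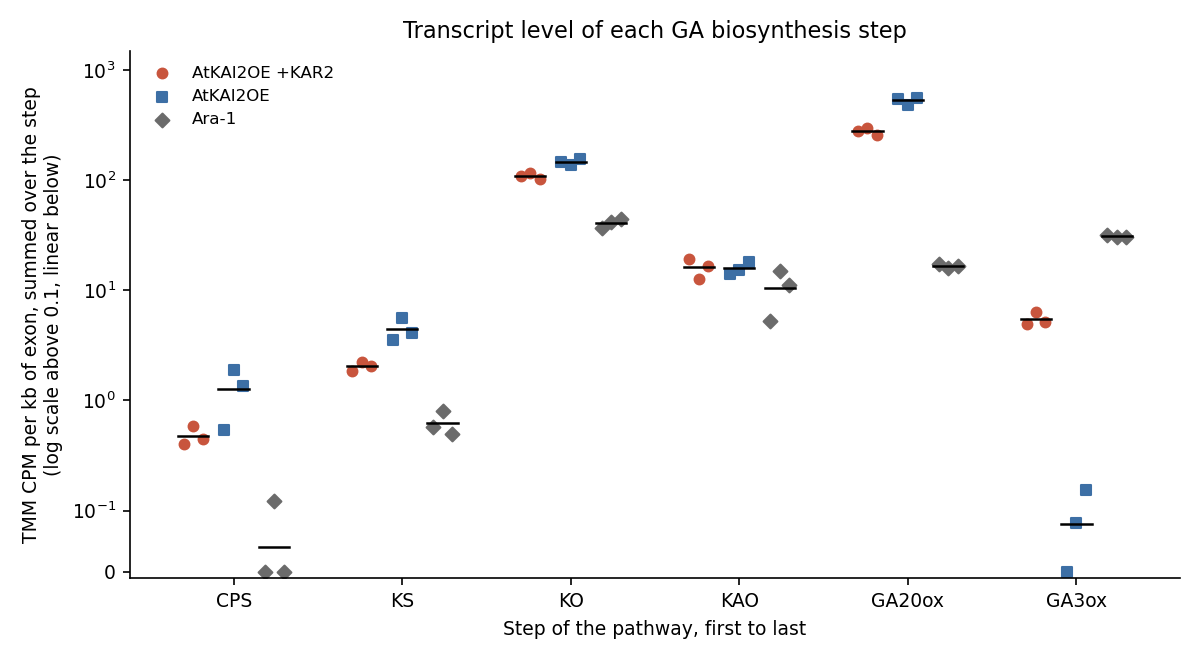
TMM CPM per kb of exon summed over the genes of each step (y axis, log scale above 0.1 and linear below), in pathway order (x axis). Points are libraries of AtKAI2OE +KAR2, untreated AtKAI2OE and Ara-1, and black lines are means of 3. From CPS to GA20ox the Ara-1 mean is the lowest of the 3 groups, and at GA3ox it is the highest, at 30.9 CPM per kb.

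The GA20ox and GA3ox sums were also set against each other in each library. The GA20ox sum was 47.7 to 56.0 times the GA3ox sum in the AtKAI2OE +KAR2 libraries, against 6125 and 3644 times in a pair of the untreated libraries, while the remaining one had no GA3ox count and hence no ratio. In Ara-1 it was 0.52 to 0.55 times the GA3ox sum. AtKAI2OE +KAR2 thus lay between untreated AtKAI2OE and Ara-1 at both steps, with less GA20ox and more GA3ox than the untreated seeds. With 3 libraries per group an exact permutation test cannot give a p below 0.1, and none was run on these ratios.

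**Figure D4:**
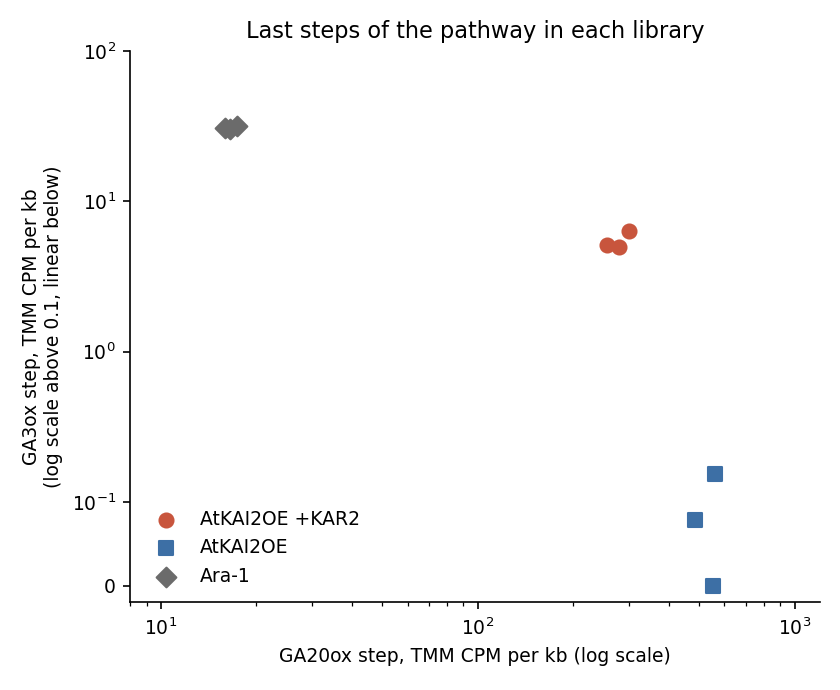
Summed level of the GA3ox step (y axis, log scale above 0.1 and linear below) against that of the GA20ox step (x axis, log scale), both in TMM CPM per kb, with 1 point per library. The Ara-1 libraries sit at 15.9 to 17.3 on the GA20ox axis and at 30.3 to 31.8 on the GA3ox axis, and the untreated AtKAI2OE libraries at 485 to 561 and at most 0.15.

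The paralogs differed within the length of a read. Their coding sequences were 78.7% identical for KAO1 and KAO2, 77.55% for GA20ox1 and GA20ox2, 65.9% for GA20ox1 and GA20ox3, 64.9% for GA20ox2 and GA20ox3 and 74.3% for GA3ox1 and GA3ox2. The longest run of identical bases was 31, in the KAO pair, against reads of 75 bases of which only uniquely mapped ones were kept.

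The genes whose log2 CPM followed each member most closely were sought over the 9 libraries, which fall into the 3 groups, so that a high coefficient mostly describes the group means. GA3ox1 was followed most closely by NIK1, a receptor-like kinase gene, and PIP1C, a plasma membrane aquaporin gene (Pearson's r = 0.999 each). For GA3ox2 they were SNRK2.7, a protein kinase gene, and XCP2, a cysteine peptidase gene (0.999 each), and for GA20ox3 AT3G53230 and BOA, a clock-associated transcription factor gene (0.999 each). KO was followed by SCL3, a GRAS-domain regulator gene (0.998), and HMG (0.997), and KS by AT1G54920 and RPS4 (0.997 and 0.996). The coefficients were lower for CPS (AT2G19120, 0.989, and NMNAT, 0.985), GA20ox1 (MSR2, 0.977, and LTA3, 0.973), KAO1 (AT1G74120, 0.978, and RGS1, 0.956) and KAO2 (AAE18, 0.958, and AT1G23230, 0.943). GA20ox2 was followed by AT2G09795 (0.997) and AT1G52905 (0.995).

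Of 13 genes listed for GA inactivation, 8 had no count in any library and 3 were tested. After KAR2, 1 rose and 2 fell (median log2 fold change -0.78, against 0.06 over all genes), beside 29.8% higher and 24.0% lower among all genes. All 3 were higher than in Ara-1 in untreated AtKAI2OE (median 4.72, against -0.16, beside 31.8% of all genes) and in AtKAI2OE +KAR2 (median 2.50, against 0.01, beside 32.2%). GA2ox2, a GA 2-oxidase, had 58.1, 61.4 and 53.2 CPM in AtKAI2OE +KAR2, 32.8, 32.1 and 40.7 CPM in untreated AtKAI2OE and 9.88, 10.4 and 12.6 CPM in Ara-1, with a log2 fold change of 0.69 after KAR2 (SE 0.12, adjusted p = 0.00273). ELA1, a P450 gene linked to GA deactivation, was lower after KAR2 (-0.78, SE 0.16, adjusted p = 0.00518) and higher than in Ara-1 by 4.82 in untreated AtKAI2OE and 4.09 in AtKAI2OE +KAR2 on the log2 scale. The third gene, AT5G58660, was listed here as GA2ox9 and belongs to the 2-oxoglutarate and Fe(II)-dependent oxygenase superfamily. It fell by 2.25 on the log2 scale after KAR2 (SE 0.14, adjusted p = 4.25e-05).

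Of 11 genes of GA perception, 5 rose and 3 fell after KAR2, and 3 did not pass (median log2 fold change 0.54, against 0.06 over all genes). Beside this, 29.8% of all genes tested were called higher and 24.0% lower. The GA receptor genes did not all move together, since GID1A and GID1C fell after KAR2 and GID1B rose. GID1A had 84.7, 84.7 and 79.4 CPM in AtKAI2OE +KAR2, 224, 201 and 255 CPM in untreated AtKAI2OE and 14.6, 15.1 and 14.8 CPM in Ara-1, so that it ran in the order of GA20ox3. GID1B had 5.13, 5.94 and 4.84 CPM in AtKAI2OE +KAR2, 0, 0.32 and 0.98 CPM in untreated AtKAI2OE and 6.04, 5.54 and 7.28 CPM in Ara-1. GID1A fell by 1.47 on the log2 scale after KAR2 (SE 0.12, adjusted p = 0.000113), GID1C fell by 1.03 (SE 0.13, adjusted p = 0.000673) and GID1B rose by 3.53 (SE 0.74, adjusted p = 0.0061). The untreated GID1B values rest on 0, 8 and 21 counts, and its fold change was 3.01 without untreated replicate 1 and 4.72 without untreated replicate 3. RGL1, which encodes a DELLA repressor of GA responses, rose by 3.50 (SE 0.28, adjusted p = 9.03e-05), from 6, 16 and 17 counts in untreated AtKAI2OE. The other DELLA genes moved less, with GAI and RGA higher by 0.54 each, RGL3 by 1.19 and RGL2 at -0.03 (adjusted p = 0.884). Mean levels in AtKAI2OE +KAR2 were 7.18 CPM for RGL1, 434 for GAI, 277 for RGA, 357 for RGL2 and 93.1 for RGL3. In untreated AtKAI2OE against Ara-1, 6 of the 11 were higher and 3 lower (median 0.64, against -0.16), beside 31.8% and 37.9% of all genes. In AtKAI2OE +KAR2 against Ara-1, 7 were higher and 1 lower (median 0.93, against 0.01), beside 32.2% and 30.1%.

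Of 8 genes that supply GGPP, 2 rose, 1 fell and 5 did not pass after KAR2 (median 0.81, against 0.06). Among all genes tested, 29.8% were called higher and 24.0% lower after KAR2. Against Ara-1 these shares were 31.8% and 37.9% in untreated AtKAI2OE and 32.2% and 30.1% in AtKAI2OE +KAR2. DXS, the first enzyme of the plastid isoprenoid pathway, rose by 1.21 on the log2 scale (SE 0.15, adjusted p = 0.000552) and CMK, a later kinase of that pathway, by 1.25 (SE 0.22, adjusted p = 0.00264), so that these supply genes went up where CPS and KS went down. Both were lower in untreated AtKAI2OE than in Ara-1, by 1.02 and 1.998 on the log2 scale, a comparison with 1 of the 8 higher and 3 lower (median -0.68, against -0.16). HDR, the reductase that ends that pathway, fell by 0.44 on the log2 scale after KAR2 (SE 0.10, adjusted p = 0.00882), which no longer passed with scaling by library size only (-0.04, adjusted p = 0.76) or without AtKAI2OE +KAR2 replicate 1 (adjusted p = 0.0535) or 3 (adjusted p = 0.057). In AtKAI2OE +KAR2 against Ara-1, 2 were higher and 3 lower (median 0.17, against 0.01), and 1 of those called higher, DXS (0.23, adjusted p = 0.0403), lost the call in 12 of 15 alternatives. GGPPS11, the main plastid GGPP synthase gene, had 749, 0 and 618 counts in AtKAI2OE +KAR2, 17, 55 and 70 in untreated AtKAI2OE and 518, 0 and 0 in Ara-1, and did not pass in any of the comparisons with all 6 libraries. It passed after KAR2 without AtKAI2OE +KAR2 replicate 2 (3.33, adjusted p = 0.00164). Without Ara-1 replicate 1 that group had no GGPPS11 count, and the fitted values, which then depend on the prior count, passed at 8.88 in untreated AtKAI2OE (adjusted p = 0.00179) and 11.9 in AtKAI2OE +KAR2 (adjusted p = 0.0294). The reductase genes ATR1 and ATR2, which pass electrons to KO and KAO, were both higher in each AtKAI2OE group than in Ara-1 (median 0.91 in untreated AtKAI2OE and 0.62 in AtKAI2OE +KAR2), and after KAR2 only ATR1 passed, with a fall of 0.53 on the log2 scale (SE 0.14, adjusted p = 0.0149) that no longer passed without any one of the AtKAI2OE +KAR2 libraries (adjusted p from 0.0581 to 0.0719) or with only the entry named by the identifier (-0.23, adjusted p = 0.234).

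Of 12 regulators reported to act on GA metabolism genes in seeds, 4 rose, 3 fell and 5 did not pass after KAR2 (median 0.06, against 0.06). Among all genes, 29.8% were called higher and 24.0% lower after KAR2. PIF1, a bHLH factor that represses GA3ox1 and GA3ox2 in dark-imbibed seeds, had 56.6, 53.5 and 55.2 CPM in AtKAI2OE +KAR2, 63.4, 132 and 97.6 CPM in untreated AtKAI2OE and 29.0, 34.7 and 29.1 CPM in Ara-1. Its fall of 0.85 on the log2 scale after KAR2 (SE 0.24, adjusted p = 0.0214) no longer passed without any one of the AtKAI2OE +KAR2 libraries (adjusted p from 0.0687 to 0.0753). An assembled entry held most PIF1 counts, with 1282, 921 and 1259 in AtKAI2OE +KAR2 and 492, 2427 and 1697 in untreated AtKAI2OE. The entry named by the identifier had 472, 348 and 374 counts and 466, 858 and 385 counts in these groups. SOM, a zinc finger gene downstream of PIF1, fell by 1.03 (SE 0.19, adjusted p = 0.00313). SPT, a bHLH repressor of GA3ox genes, rose by 3.26 (SE 0.20, adjusted p = 4.31e-05) and ABI4, an AP2 factor of abscisic acid signalling, by 3.01 (SE 0.14, adjusted p = 2.47e-05), so that both rose beside GA3ox1 and GA3ox2. SMAX1, the repressor degraded on KAI2 signalling, had a log2 fold change of -0.32 that did not pass (SE 0.17, adjusted p = 0.147), but did without untreated replicate 1 (-0.47, adjusted p = 0.0269). SMXL2, a partly redundant relative of SMAX1, rose by 0.75 (SE 0.15, adjusted p = 0.00545). The remaining called regulators were JMJ22, which rose by 0.44 (adjusted p = 0.0253), and JMJ20, with a log2 fold change of -1.24 (adjusted p = 0.0115). In each comparison with Ara-1, 6 of the 12 were higher and 4 lower, with medians of 0.77 in untreated AtKAI2OE (against -0.16) and 0.60 in AtKAI2OE +KAR2 (against 0.01). The shares of all genes called higher and lower were 31.8% and 37.9% in untreated AtKAI2OE and 32.2% and 30.1% in AtKAI2OE +KAR2. FUS3, a B3 factor of embryo maturation, had no count in Ara-1 and was at least 32.6-fold higher in untreated AtKAI2OE and at least 22.3-fold higher in AtKAI2OE +KAR2.

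**Figure D5:**
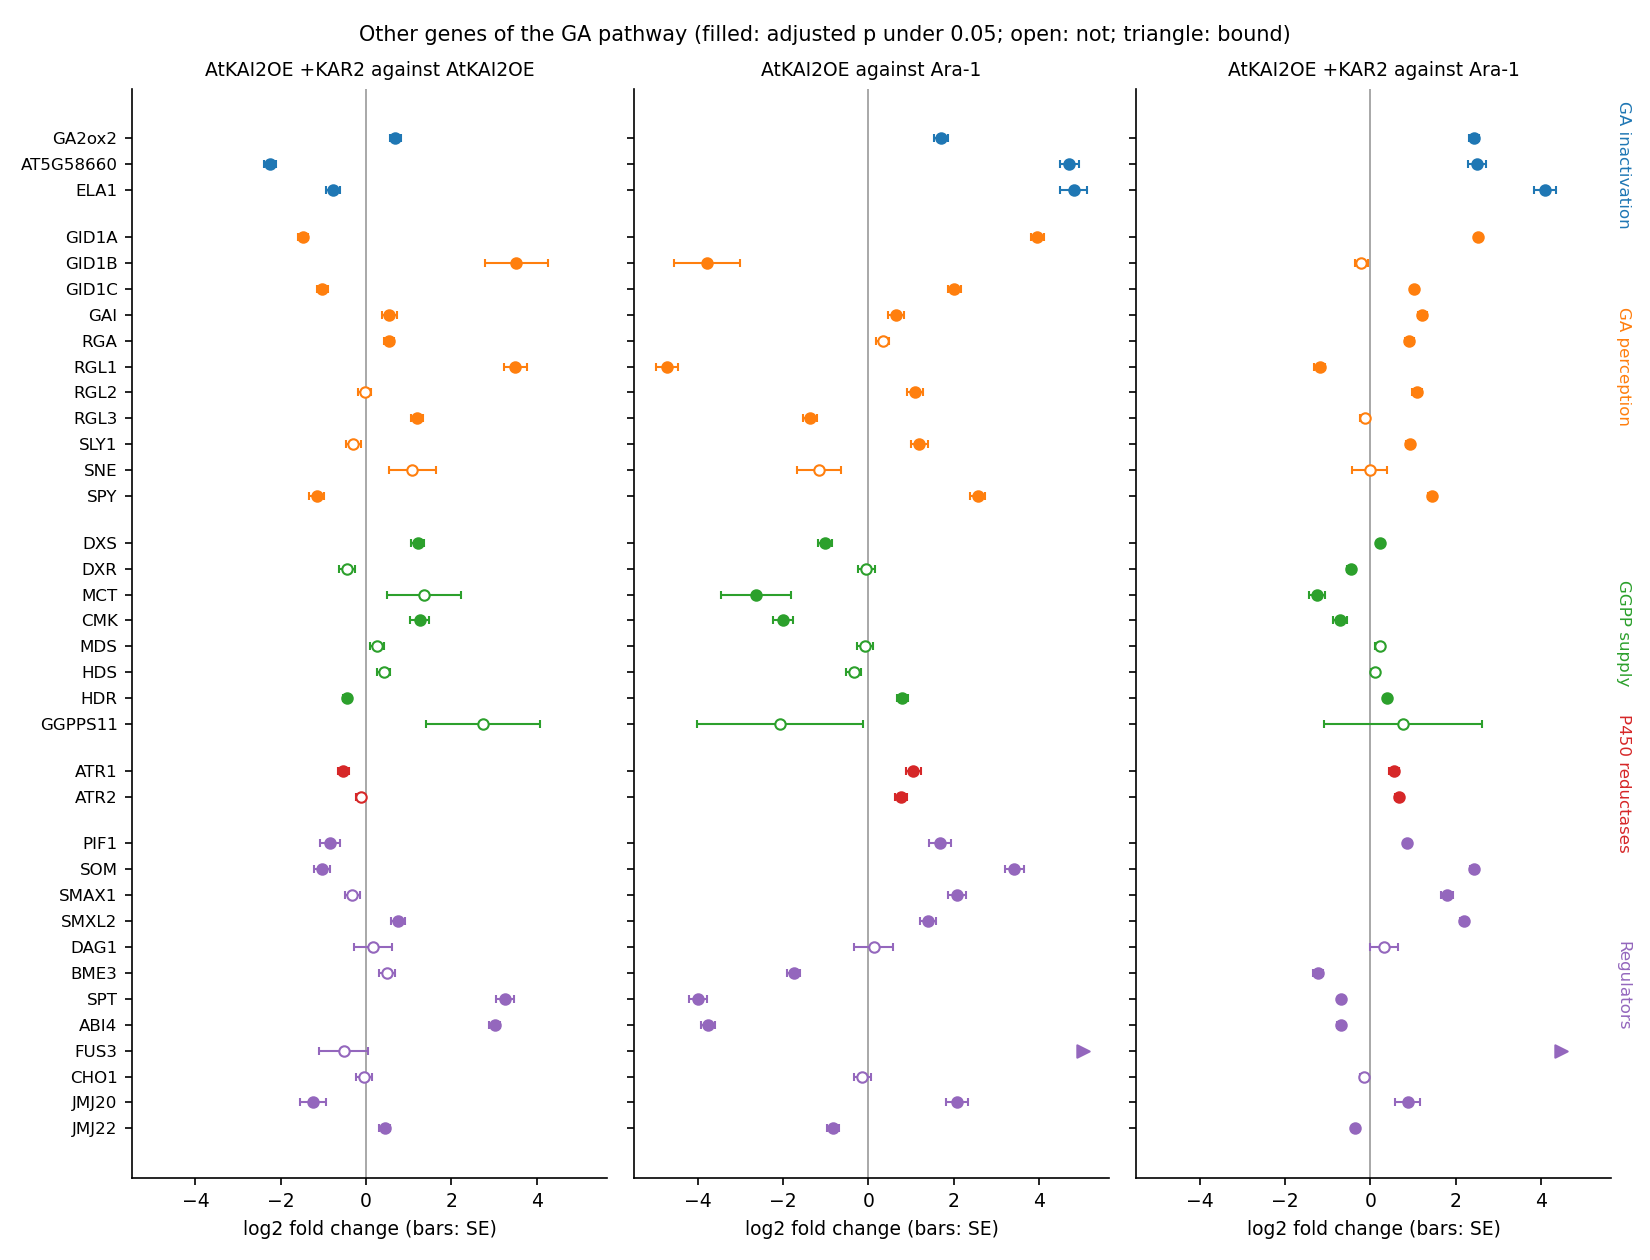
Log2 fold change (x axis) of the other genes of the GA pathway that were tested (y axis, grouped by list) in the 3 comparisons. Points are fitted values with SE bars, filled where the adjusted p was below 0.05, and triangles are bounds where Ara-1 had no count. Within GA perception, GID1A lies at -1.47 and GID1B at 3.53 after KAR2.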

How the data were processed

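Whole dark-imbibed seeds of AtKAI2OE +KAR2, untreated AtKAI2OE and Ara-1 were sequenced with 3 biological replicates each as single-end reads from directional libraries. The authors cleaned the reads (htStream), aligned them with HISAT2 2.1.0 to TAIR10 and kept uniquely mapped reads with SAMtools 1.10. They assembled transcripts with StringTie 2.1.3 on Araport11 and deposited whole-number counts derived from transcript coverage. For some genes a 0 stood beside high replicates, and the cause of such zeros was not tested. The deposited normalized values were not used here. Entries of one gene were summed (3119 genes had 2 or more) and the 1105 entries without a gene left out.

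Tests used R 4.3.3 and edgeR 4.0.16 (filterByExpr with minimum count 10 and minimum total 15, TMM, quasi-likelihood, 0.05), on the 6 libraries of each comparison. The SE was obtained as the absolute log2 fold change divided by the root of the F statistic. A group with no count was set to 3 counts over the group for a bound. Exon lengths, positions and upstream bases come from TAIR10.1, since the files carry no coordinates, and 32545 genes matched its loci. Motifs and coding identity were computed with Biopython 1.88. The upstream bases of GA3ox2 are not reported here. Chi-square divided by its degrees of freedom was 11.6 to 128 between replicates, beyond sampling noise. No source used here says what a shared replicate number marks, and p-values measure only the spread between these samples. Scripts were tested on simulated data. The genes and lists, and the rule naming for each gene the 2 most correlated genes (log2 CPM, prior count 2), were chosen with earlier results of these data known. Alternatives were RLE scaling, library size only, DESeq2 1.42.0, no filter, a minimum of 10 counts in every library, one fit of all 9 libraries, a replicate block, unnamed entries kept, only the entry named by the identifier, and each replicate left out.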

Additional observations from a re-analysis of the deposited data

How the results depend on the processing

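Scaling by library size only moved the median log2 fold change of all genes after KAR2 to 0.46, against 0.06, and the split of called genes to 7105 higher and 2267 lower, against 5140 and 4126 (75.8% higher, against 55.5%). With it 2 of the 10 genes were lower after KAR2, CPS (adjusted p = 0.0984) and KO (-0.05, adjusted p = 0.737) no longer passed, KS (-0.75) and GA20ox3 (-0.61) still did, and GA20ox2 passed (0.57, adjusted p = 0.00867), as did GA20ox1 in untreated AtKAI2OE against Ara-1 (-1.05, adjusted p = 0.0451). KAO1 turned to 0.11, ATR2 to 0.27 and SMAX1 to 0.07, and PIF1 (-0.47, adjusted p = 0.198), ELA1 (-0.39, adjusted p = 0.124) and ATR1 (-0.14, adjusted p = 0.522) no longer passed after KAR2, nor ATR2 in untreated AtKAI2OE against Ara-1 (0.41, adjusted p = 0.0674). With all 9 libraries in the fit, CPS after KAR2 no longer passed (adjusted p = 0.139). A filter of 10 counts in every library left 1 of the 10 genes higher after KAR2 and 0 lower in untreated AtKAI2OE against Ara-1, because genes at or near 0 in a group were no longer tested. Leaving out 1 library each gave 2 to 4 genes lower after KAR2, KAO1 from -0.86 to 0.70, KAO2 from -0.14 to 0.19, FUS3 from -0.90 to 0.15 and GGPPS11 from -2.67 to 8.88 in untreated AtKAI2OE against Ara-1. Correlations of deviations were from -0.089 to 0.270 between libraries of the same replicate number and from -0.131 to 0.117 between different numbers. Those of the same number were all positive in untreated AtKAI2OE against Ara-1 (0.049, 0.270 and 0.032) and all negative in the other comparisons. The numbers thus showed no pairing shared by all comparisons. With the replicate block 3 of the 10 genes were lower after KAR2, KO (adjusted p = 0.0784) and HDR (adjusted p = 0.0524) no longer passed and KAO1 turned to 0.44. In untreated AtKAI2OE against Ara-1, GGPPS11 turned to 2.51 with the block, against -2.06. The cause of these changes was not tested. Of 441 values of the 10 genes under alternatives, 420 kept direction and call, 12 lost the call, 3 gained one and 6 changed sign. CPS in Ara-1 (12 counts) and GA3ox1 in untreated AtKAI2OE (8 counts) rest on few counts.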
